A study of Macaca fascicularis with 4 samples.

Results

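The transcripts of 8 SOX transcription factor genes (SOX2, SOX4, SOX7, SOX8, SOX9, SOX10, SOX11 and SOX18) were followed through 4 single-cell libraries of cynomolgus monkey (Macaca fascicularis) embryos. The genes were taken by symbol from the 26223 gene rows, which hold 18 SOX genes in all. SOX3, SOX5, SOX6, SOX12, SOX13, SOX14, SOX15, SOX17, SOX21 and SOX30 are the other 10. The study, by its title, concerns the embryonic origin of the somatic cells of the gonad. Dissociated tissue was profiled cell by cell in droplets, from tags of the 3′ ends of transcripts, and there is 1 library for each of embryonic day (E) 24, E28, E31 and E37, Carnegie stages 11, 13, 14 and 18. The labels give no allele and no agent for any embryo. The E24 library, for which the label names more than 1 embryo, held the trunk without its heart, its anterior tissue and the posterior growth zone. The E28 and E31 libraries held mesonephros and coelomic epithelium of the urogenital ridge, together with neighbouring mesentery. At E37 the same region was taken as a block and trimmed, so that it was mostly gonadal ridge with mesonephros, presumed adrenal tissue and mesentery attached. Stage and tissue taken therefore cannot be told apart, except between E28 and E31, where the dissection was described in the same way.

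SOX proteins bind DNA through a domain related to that of the testis-determining factor SRY, bend it, and act with partner factors that differ between cell types. SOX2, of group B1, maintains neural progenitors, and SOX4 and SOX11, of group C, are widely expressed in embryonic progenitors and young neurons. SOX8, SOX9 and SOX10, of group E, act in neural crest, glia, cartilage and the supporting cells of the testis, and SOX7 and SOX18, of group F together with SOX17, act in the lining of blood and lymph vessels.

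After filtering, 10639, 4964, 6654 and 5288 cells were kept at E24, E28, E31 and E37, 27545 in all. The libraries held 40243286 to 115332663 unique molecular identifiers (UMIs, the count of captured transcripts), and the median barcode held 6672.5 to 11391, with the lowest median at E37. Between 35 and 110 barcode sequences were shared by any pair of libraries, 0.705% to 1.65% of the smaller one. Levels are given in CPM, the UMIs of a gene scaled to a summed count of 1e6 UMIs over the cells described. The tags come from transcript 3′ ends, so levels were not divided by transcript length, and differences in capture between genes are not corrected. Each stage has 1 library, so no test was possible. Every interval in brackets is a 95% interval of counting error within a library and leaves out differences between embryos. In summed levels, fewer cells of a type and less RNA per cell cannot be told apart. Cells with at least 1 UMI of a gene are called positive for it. A gene is called higher or lower at 2-fold or more, and each count of SOX genes is set beside the share of all genes with at least 50 UMIs that passed the same fold.

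SOX4 was the most abundant of the 8 genes in every library, SOX2 was second to it at E24, and SOX10 and SOX18 were the scarcest of the 8 until E31. In order of stage, SOX4 had levels of 387, 511, 572 and 667 CPM and was detected in 88.0%, 92.3%, 93.6% and 90.9% of cells. SOX2 stood at 104, 6.31, 7.78 and 17.98 CPM, in 24.3%, 2.70%, 3.08% and 5.92% of cells. The other 6 genes lay between 0.468 and 18.5 CPM in each library, in the order SOX9, SOX8, SOX11, SOX7, SOX18 and SOX10 at E24, where the intervals of SOX8 and SOX11 overlap, as do those of SOX11 and SOX7. SOX10 had 0.468, 1.93, 2.22 and 9.84 CPM, from 41, 60, 98 and 242 positive cells. SOX18 had 1.30, 5.23, 5.30 and 5.78 CPM. The E24 value of SOX18 lies apart from the other 3, whose intervals overlap.

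**Figure D1:**
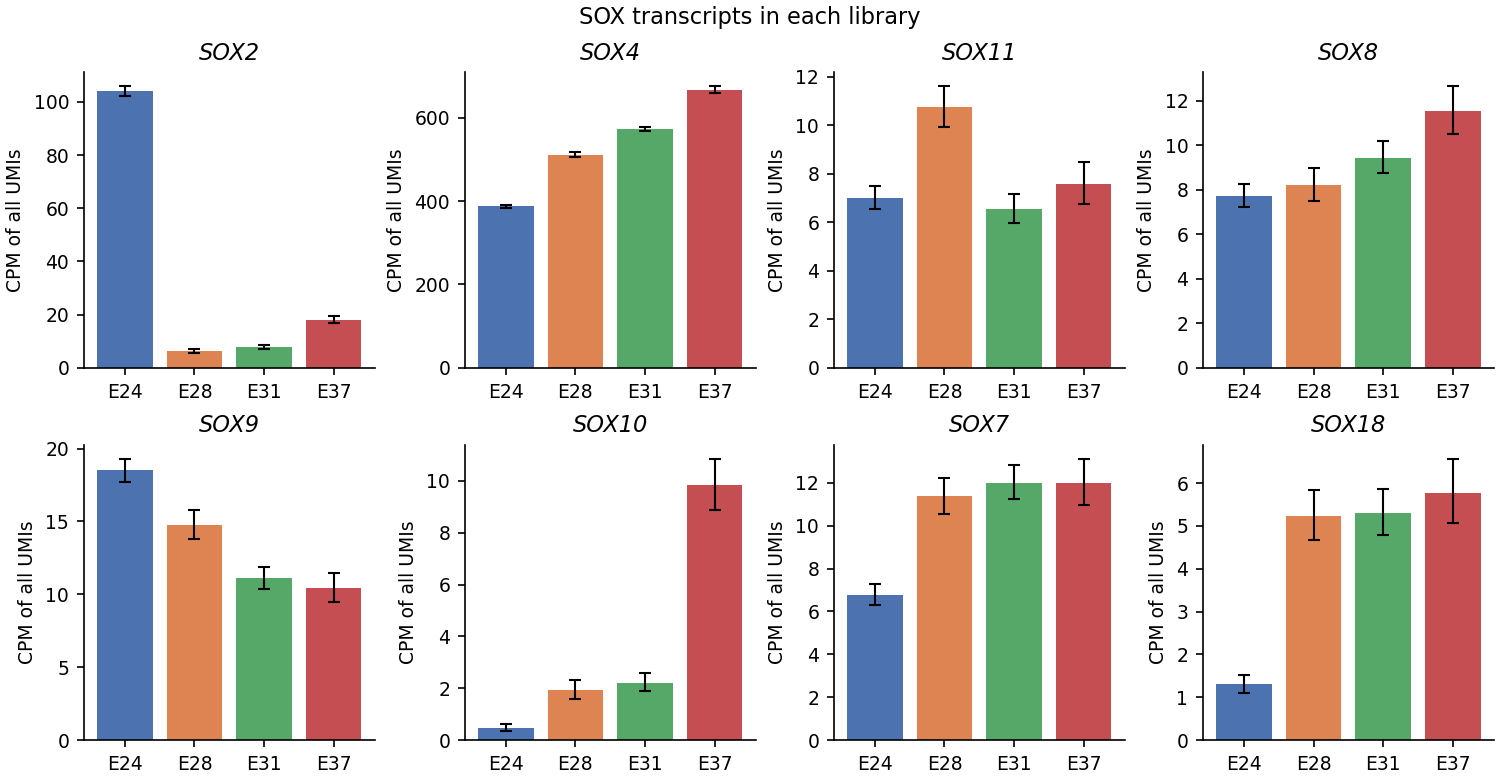
Level of each of the 8 SOX genes in the 4 libraries (bars, CPM of all UMIs kept, each panel with its own axis from 0), with error bars for the exact Poisson 95% interval of counting error. SOX2 is tallest at E24 with 104 CPM and SOX10 at E37 with 9.84 CPM, while SOX4 lies between 387 CPM at E24 and 667 CPM at E37.

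Between E24 and E28, SOX10 was 4.12-fold [2.96 to 5.79] higher and SOX18 4.02-fold [3.30 to 4.91] higher, 2 of 8 members, against 16.4% of 16137 genes. SOX2 was 16.5-fold [14.9 to 18.3] lower, 1 of 8 members, against 6% of genes. The other 5 members stayed within 2-fold, at ratios of 0.798 for SOX9, 1.06 for SOX8, 1.32 for SOX4, 1.53 for SOX11 and 1.68 for SOX7. The median gene was itself higher at E28 by 0.24 on the log2 scale, and SOX4 by 0.40. Between E28 and E31, with the dissection alike, none of the 8 members was 2-fold apart, against 1.23% of genes higher and 3.01% lower. The member farthest from equal there was SOX11, with 10.8 and 6.54 CPM and a ratio of 0.609 [0.540 to 0.686]. At E37 against E31, SOX2 was 2.31-fold [2.07 to 2.59] and SOX10 4.43-fold [3.68 to 5.36] higher, 2 of 8 against 8.76% of genes, and none was lower against 7.95%.

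Of the SOX genes that are not among the 8, SOX21, a group B gene that counters SOX2 in neural progenitors, had 505 UMIs at E24 and 4, 5 and 1 in the later libraries. SOX12, the third group C gene, was 20.8, 19.2, 33.7 and 14.3 CPM and so 2.36-fold lower at E37 than at E31. SOX3, SOX14 and SOX30 had at most 6 UMIs in any library. SOX15 lay between 0.624 and 1.54 CPM and was 2.46-fold [1.71 to 3.59] lower at E31 than at E28.

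To see which cells hold each gene, cells positive for PECAM1 (an adhesion protein of endothelium, platelets and white blood cells), SOX10 (neural crest and its glia), PAX6 (neural tube), PAX1 (sclerotome, the source of vertebrae and ribs) or LHX9 (the early gonad and its coelomic epithelium) were set against all other cells of the library. PECAM1-positive cells numbered 334, 278, 382 and 230 at E24, E28, E31 and E37. LHX9-positive cells numbered 142, 67 and 618 at E28, E31 and E37, and the 15 at E24 were too few to use. PAX1-positive cells numbered 449, 35 and 51 at E24, E28 and E31, with 14 at E37 left out. PAX6 marked 1236 cells at E24, 1 at E28 and none later, so it was used at E24 alone. The classes hardly overlapped: at most 17 cells in a library held a pair of these markers, PECAM1 with PAX6 at E24.

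**Figure D2:**
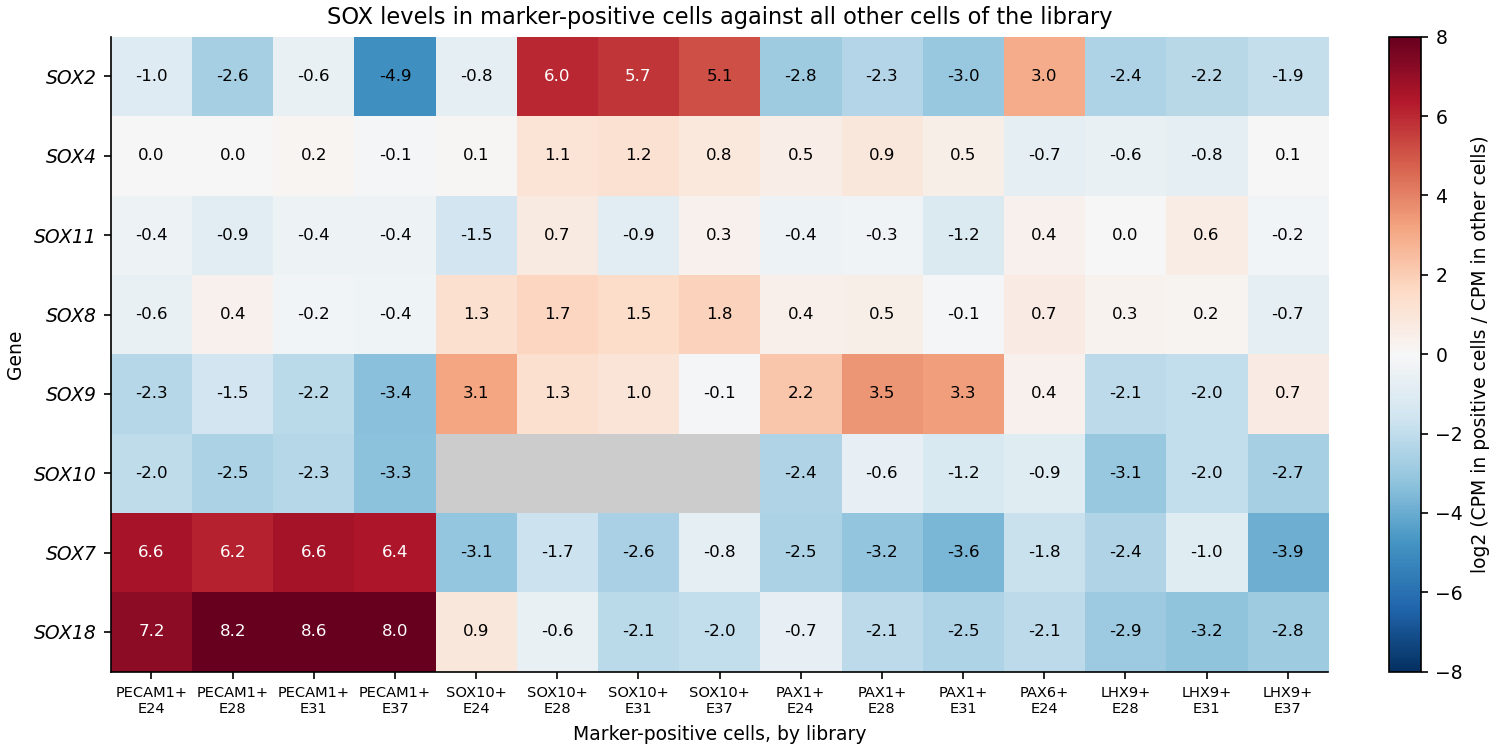
Log2 ratio of the CPM in marker-positive cells to the CPM in all other cells of the same library, for the 8 SOX genes and each combination of marker and library with at least 20 positive cells, with 0.5 UMI added to each sum. Grey marks SOX10 in SOX10-positive cells, which the choice of cells fixes. Red is higher and blue lower: the deepest red is that of SOX7 and SOX18 in PECAM1-positive cells (71.4- to 402-fold) and of SOX2 in SOX10-positive cells from E28 (35.4- to 65.0-fold), with SOX9 red in PAX1-positive cells.

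SOX2, the group B1 gene, was highest in neural tube-like cells at E24 and in neural crest-like cells afterwards. In PAX6-positive cells at E24 it stood at 456 CPM and in the other cells at 57.8 CPM, 7.89-fold [7.61 to 8.18] higher, and 88.2% of PAX6-positive cells held it. It was 1 of 8 members that were higher in these cells, against 2.97% of all genes, and SOX7 and SOX18 were lower, against 13.8%. PAX6-positive cells held 50.8% of the SOX2 UMIs of the library. Of 28 clusters at E24, which were formed without any SOX gene, 10 had at least 20 CPM. The highest was a neural tube-like cluster of 196 cells led by NKX2-8 and FOXA2, a factor of the floor plate, with 692 CPM [652 to 734]. A pair of PAX6-led neural tube-like clusters followed with 574 and 539 CPM, then a neuron-like cluster with 363 CPM. A cluster of 521 cells, led by FGF17, HES7 and CDX4 with SOX2, CDX2 and T also among its 10 leading genes, had 351 CPM [336 to 366]. It was listed as presomitic mesoderm-like on 4 markers, whereas the other cluster of that name, with 9 markers and TBX6 among its leading genes, had 12.3 CPM of SOX2. The neural crest-like cluster had 196 CPM and a gut endoderm-like cluster 62.1 CPM.

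Among the partners of SOX2 in neural cells, 3 of the 9 measured genes other than PAX6 were higher in PAX6-positive cells at E24 and 2 were lower, with a median log2 ratio of 0.30 beside -0.07 over all genes. POU3F2, a POU factor that binds DNA beside SOX2, had 96.8 against 8.80 CPM. FABP7, a fatty acid binding protein of radial glia, had 42.2 against 13.3 CPM. POU3F1 had 1.65 against 0.422 CPM, from 22 UMIs, and POU5F1 was lower with 8 UMIs. SOX21 was 4.64-fold [3.86 to 5.58] higher in the same cells, at 14.3 CPM, whereas SOX6 was lower at 0.289 of the level elsewhere. Neural tube markers other than PAX6 were higher for 8 of 12 genes and neuron markers for 6 of 9.

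Erythroid cells, which should lack SOX2, held it in 12.5% of 104 cells at E24, at 12.7 CPM, with a median of 23890 UMIs per cell, above the 9990 of the library. The share of all cells at E24 was 24.3%. Macrophage cells, the other background, held SOX2 at E24 at 47.4 CPM [33.4 to 65.4], from 37 UMIs in 4 of 58 cells. At E28, E31 and E37 no SOX2 UMI was found in the 51, 51 and 112 erythroid cells. Taking 3 cells as the limit that a count of 0 allows, the share of cells with a UMI could be up to 5.88%, 5.88% and 2.68%.

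SOX10, the group E gene of neural crest and Schwann cell precursors, came from few cells in each library. The 41, 60, 98 and 242 positive cells were 0.385%, 1.21%, 1.47% and 4.58% of cells. Of them, 31 at E24, 56 at E28 and 90 at E31 fell into the single neural crest-like cluster of their library, and 122 and 113 at E37 into the 2 such clusters. The share of positive cells within these clusters was 10.7% at E24, 56.0% at E28, 45.7% at E31, and 47.8% and 71.1% at E37. In those clusters SOX10 had 14.3, 80.0, 69.4, 101 and 120 CPM in the same order, and outside them at most 1.93 CPM. No erythroid cell held a SOX10 UMI, 0 of 104, 51, 51 and 112, for which the same limit of 3 cells gives shares of up to 2.88%, 5.88%, 5.88% and 2.68%.

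Neural crest markers other than SOX10 were higher in SOX10-positive cells for 10 of 11 genes at E24 and 12 of 13 in each later library. Of the known SOX10 targets, 7 of 12 were higher at E24 and at E28, 7 of 11 at E31 and 8 of 11 at E37, with median log2 ratios of 1.82, 4.32, 4.99 and 3.68 beside -0.10 to 0.02 over all genes. FOXD3, an early neural crest factor, had 30.6, 35.1, 36.7 and 70.8 CPM in SOX10-positive cells at E24, E28, E31 and E37. ERBB3, the neuregulin receptor of crest and glia, had 98.2, 192, 145 and 272 CPM in the same cells. Sympathoadrenal markers as a list were higher for 5 of 12 genes at E28 and 5 of 11 at E31. At E37, 2 of 12 were higher and 8 lower. TH, the rate-limiting enzyme of catecholamine synthesis, was lower in each of the 3, with 23.1, 24.4 and 28.6 CPM against 62.9, 79.7 and 92.1 CPM. The part of sympathoadrenal cells in the SOX values was not tested.

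SOX2 was not high in SOX10-positive cells at E24 and was high in them from E28. It had 59.6 CPM in SOX10-positive cells at E24, within the macrophage interval of 33.4 to 65.4 CPM. SOX2 there was below the 104 CPM of all other cells, a ratio of 0.572 [0.402 to 0.789]. At E28, E31 and E37 it had 201, 220 and 216 CPM against 3.09, 4.10 and 6.10 CPM elsewhere, which is 65.0-fold [53.0 to 79.8], 53.6-fold [45.2 to 63.5] and 35.4-fold [30.2 to 41.6] higher. By at least 3 other crest markers the ratios were 102, 126 and 453, and with 2 SOX10 UMIs required 48.7, 41.1 and 18.1, so no order between these stages is read from them. SOX10-positive cells held 0.309% of all SOX2 UMIs at E24 and 51.8%, 48.1% and 68.0% later. Within SOX10-positive cells SOX2 was 3.37-fold [2.36 to 4.93] higher at E28 than at E24, where 8.37% of 4371 genes were 2-fold higher, and SOX4 was 2.64-fold higher. The neural crest-like cluster as a whole, with 196 CPM at E24 against 225, 230, 226 and 175 CPM later, differed less. As a share of cells, SOX2 was found in 51.2% of SOX10-positive and 24.2% of other cells at E24. That order goes against the CPM, and after thinning every cell to 2000 UMIs the shares were 9.76% and 13.7%. The E24 direction also turned with the choice of cells: in the 647 cells holding at least 3 crest markers other than SOX10, SOX2 was 1.51 times the level elsewhere.

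SOX9 ran the other way in these cells. SOX9, which starts crest formation and drives cartilage and Sertoli cell programmes, had 155, 34.1, 22.0 and 9.67 CPM in SOX10-positive cells at E24, E28, E31 and E37, against 17.8, 14.5, 10.9 and 10.5 CPM elsewhere. The ratios were 8.69 [7.01 to 10.7], 2.36 [1.63 to 3.33], 2.02 [1.32 to 2.96] and 0.923 [0.572 to 1.42], so the first 3 were past 2-fold. The E28 level within the class was 4.53-fold lower than the E24 level, where 4.19% of genes were 2-fold lower. SOX9 made up 72.2% [63.7 to 79.6] of the summed SOX9 and SOX2 UMIs of these cells at E24, then 14.5%, 9.09% and 4.29%. The E24 interval stands apart from the other 3, while E28 (10.3 to 19.7) overlaps E31 (6.08 to 12.95), and E31 overlaps E37 (2.71 to 6.42).

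Cell by cell and as counted, 14 of 41 SOX10-positive cells at E24 held both SOX2 and SOX9 without SOX8, and 9 held SOX9 as the only one of the 3. At E37, 124 of 242 held SOX2 alone of these 3 genes, 46 held SOX2 with SOX8 and 14 held SOX2 with SOX9. Their median depth was 14329 UMIs at E24 and 8290 at E37. At 2000 UMIs per cell, 1 cell at E24 held SOX2 with SOX9 and 11 held SOX9 alone. At E37 the numbers were then 79, 6 and 2. None of the 3 genes was then found in 61.0% of these cells at E24 and 56.6% at E37, so these sets depend on depth.

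SOX8, the third group E gene, was higher in SOX10-positive cells in all 4 libraries. It had 17.7, 26.1, 25.3 and 36.0 CPM there and 7.68, 7.92, 9.18 and 10.1 CPM elsewhere. The ratios were 2.31 [1.15 to 4.15], 3.29 [2.13 to 4.89], 2.75 [1.85 to 3.94] and 3.57 [2.78 to 4.55], and the E24 level rests on 11 UMIs. At E24 SOX8 was under 2-fold in cells chosen by at least 3 other crest markers (1.15), in cells positive for 1 of the 5 markers only (1.80) and in SOX10-positive cells of the crest-like cluster (1.82). Of the summed UMIs of SOX8 and SOX10 it made up 16.9%, 18.1%, 16.2% and 17.2%, and all these intervals overlap. SOX4 was higher at E28 and E31, with 1076 and 1277 CPM and ratios of 2.14 and 2.28, and lay below 2-fold at E24 (1.05) and E37 (1.77). The group F genes were scarce in SOX10-positive cells, with 0, 3, 2 and 16 UMIs of SOX7 and 1, 3, 1 and 3 of SOX18.

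Counting SOX2, SOX4, SOX8 and SOX9 with SOX7, SOX11 and SOX18, members higher in SOX10-positive cells numbered 2 of 7 at E24, 4 at E28, 4 at E31 and 2 at E37. The shares over all genes were 8.37%, 5.94%, 5.68% and 7.07%. In cells chosen by at least 3 other crest markers, members higher numbered 1, 2, 3 and 2, with SOX4 at 1.53 and 1.61 at E28 and E31 and SOX9 at 1.93 at E28. With 2 SOX10 UMIs required, SOX9 at E31 was 1.51-fold. Members lower numbered 2, 1, 2 and 1, SOX7 or SOX18 among them each time, beside 11.5%, 18.5%, 16.2% and 16.2% of genes. Between E31 and E28 no member was 2-fold apart within SOX10-positive cells, against 0.6% of genes higher and 1.46% lower, and none between E37 and E31, against 5.2% and 1.44%. Of the 7 members, 3 and 4 had too few UMIs for a call in those 2 comparisons, and 4 at E28 against E24. The group D genes SOX5 and SOX6, which pair with SOX9 in cartilage and modulate SOX10 in crest derivatives, were also high. SOX5 was 3.22-, 3.23-, 3.12- and 4.75-fold higher. SOX6 was 0.693 of the level elsewhere at E24 and 7.23-, 7.21- and 5.94-fold higher afterwards, with 25.8, 189, 147 and 116 CPM. SOX13, of the same group, passed 2-fold at E37 alone with 27.3 against 6.55 CPM.

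**Figure D3:**
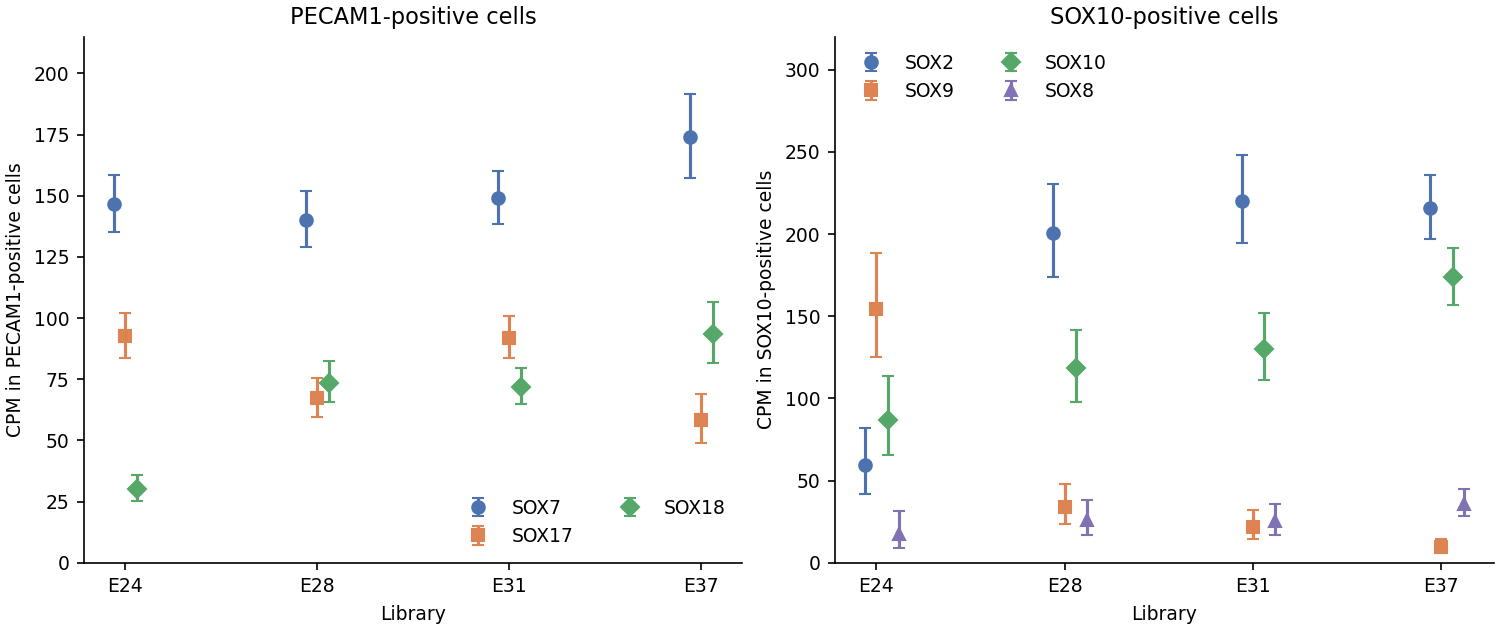
CPM of group F genes in PECAM1-positive cells (left) and of group B1 and E genes in SOX10-positive cells (right) by library, with exact Poisson 95% intervals of counting error and axes from 0. SOX18 lies at 30.3 CPM at E24 and at 71.98 to 93.6 CPM later, and SOX9 and SOX2 change places between E24 (155 and 59.6 CPM) and E28 (34.1 and 201 CPM). SOX10 is shown for scale, since it chose the cells of the right panel.

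SOX9 was high in PAX1-positive cells. Its level was 73.5, 156 and 105 CPM in PAX1-positive cells at E24, E28 and E31 and 15.8, 13.8 and 10.4 CPM in other cells. It was thus 4.64-fold [4.15 to 5.18], 11.3-fold [8.55 to 14.6] and 10.1-fold [7.499 to 13.3] higher, and 50.1%, 65.7% and 43.1% of PAX1-positive cells held it. SOX9 was the single member of 8 past 2-fold in each library, against 1.96%, 9.23% and 7.63% of genes. Members lower numbered 3, 3 and 5, with SOX2 and SOX7 each time, against 14%, 13.4% and 11.6%. PAX1-positive cells held 18.4% of SOX9 UMIs at E24 but 6.86% and 6.75% later. SOX5 was also higher, with 44.0, 80.4 and 60.3 CPM, while SOX6 was lower at E24 (0.493) and within 2-fold later. SOX4 lay at 1.42, 1.87 and 1.39 times the level elsewhere. As counted, SOX9 and SOX5 without SOX6 occurred in 71 of 449, 11 of 35 and 9 of 51 PAX1-positive cells, and all 3 genes in 24, 4 and 1. At 2000 UMIs per cell the numbers were 12, 2 and 1 for SOX9 with SOX5, and 0 in each library for all 3 genes.

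Cartilage collagens, the classic SOX9 targets, were not uniformly high in these cells. The chondrogenic list was higher for 2 of 11 genes at E24 (COL9A1 and MATN4), 6 of 9 at E28 and 2 of 10 at E31, with median log2 ratios of -0.21, 1.14 and 0.54 beside -0.05 to 0.01 over all genes. COL11A1 had 17.2, 62.8 and 60.3 CPM in PAX1-positive cells against 20.9, 12.6 and 15.3 CPM elsewhere. COL2A1, the main cartilage collagen, had 176, 256 and 239 CPM against 110, 119 and 121 CPM, and passed 2-fold at E28 alone. Within PAX1-positive cells SOX9 was 2.12-fold [1.60 to 2.78] higher at E28 than at E24, where 8.8% of genes were 2-fold higher. SOX2 was lower at E28, with 0 against 80 UMIs, beside 7.51% of genes. The 80 UMIs lay among 5335000 of the class at E24, a level within the erythroid background of that library (12.7 CPM [8.60 to 18.2]). Erythroid cells had 0 SOX2 UMIs at E28, so no fall beyond background is read from this call. No member was called at E31 against E28, where 2.2% of genes were 2-fold higher and as many lower. In that comparison 6 of 8 members had too few UMIs for a call, and 4 of 8 at E28 against E24.

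The cells behind the label differed between libraries. At E24, 80.0% of PAX1-positive cells fell into 1 sclerotome-like cluster and 8 of 9 other sclerotome markers were higher. At E28, 82.9% of them, and at E31 47.1%, fell into a smooth muscle or pericyte-like cluster led by TAGLN, COL3A1 and TWIST2, and 5 of 8 and 4 of 8 sclerotome markers were higher. Where cells were chosen by at least 3 sclerotome markers other than PAX1, SOX9 was 1.87-fold higher at E24, 0.939 of the level elsewhere at E28 and 1.34-fold higher at E31.

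Other cells held SOX9 as well. At E24 the notochord-like cluster of 48 cells had 192 CPM [156 to 233], the neural crest-like cluster 147 CPM [134 to 162] and the sclerotome-like cluster 69.5 CPM. The intervals of notochord and neural crest overlap. At E28 SOX9 was highest in the smooth muscle or pericyte-like cluster (67.1 CPM), in an unnamed cluster led by DKK1, CALB1 and LHX1 (57.1 CPM) and in a nephric epithelium-like cluster (39.9 CPM). At E31 a nephric epithelium-like cluster led by CALB1, DKK1 and EPCAM had 38.8 CPM. At E37 a podocyte-like cluster had 36.8 CPM from 21 UMIs, and an unnamed cluster led by HOXD10 and HOXA10 had 27.8 CPM.

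In LHX9-positive cells SOX9 was scarce until E37. It had 3.36 CPM at E28 and 2.27 CPM at E31, from 7 and 2 UMIs, against 15.2 and 11.2 CPM elsewhere, with ratios of 0.221 [0.0888 to 0.458] and 0.203 [0.0245 to 0.736]. At E37 it had 15.3 CPM from 75 UMIs against 9.75 CPM elsewhere, a ratio of 1.57 [1.21 to 2.02], below 2-fold. Within LHX9-positive cells the E37 level was 6.74-fold [1.80 to 56.7] the E31 level, where 7.78% of genes were 2-fold higher and 3.82% lower. At E31 against E28 no member was 2-fold apart, beside 0.689% of genes higher and 1.59% lower. In that comparison 7 of 8 members had too few UMIs for a call, and 6 of 8 at E37 against E31. As counted, 9.87% of LHX9-positive and 6.55% of other cells held SOX9 at E37, but after thinning to 2000 UMIs the shares were 1.94% and 2.14%, so that no order could be read from shares of cells. As background, erythroid cells held SOX9 at 4.13 CPM at E28, above the LHX9-positive level, and at 1.47 CPM [0.178 to 5.30] at E31, and so the LHX9-positive levels of these 2 libraries were not above background. At E37, 0 of 112 erythroid cells, with a median of 13775 UMIs, and 1 of 87 macrophage cells, with a median of 8485, held a SOX9 UMI.

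No member was higher in LHX9-positive cells in any library, against 3.35%, 6.11% and 2.88% of genes, and 5, 4 and 4 of 8 were lower, against 13.8%, 10.8% and 8.93%. SOX4 differed between stages, with 337, 339 and 688 CPM in LHX9-positive cells, or 0.651, 0.589 and 1.04 times the level elsewhere, and 2.03-fold [1.80 to 2.29] higher at E37 than at E31. The gonadal soma-like cluster of E37 had 1124 CPM of SOX4. LHX9-positive cells of E37 held the gonadal markers GATA4 at 42.7 CPM and EMX2 at 67.1 CPM, with 5 of 8 gonadal and 7 of 8 coelomic markers higher. At E31 the markers of limb or body wall mesenchyme were higher for 4 of 7 genes in LHX9-positive cells. NR5A1, a defining factor of the gonad, had no UMI in LHX9-positive cells at E28, E31 or E37. The gene was scarce in these counts, with 6, 5 and 7 UMIs in the whole libraries, and all 7 at E37 lay in the adrenocortical-like cluster of 272 cells. At this depth 0 UMIs do not show that LHX9-positive cells lack it.

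Of the 618 LHX9-positive cells at E37, 61 held SOX9, and they were compared with the 557 that did not. SOX9-positive cells were spread over the clusters, with 27 and 9 in the coelomic epithelium-like clusters and 14 in the gonadal soma-like cluster, or 10.3%, 7.03% and 10.5% of the LHX9-positive cells there, and 1 in the macrophage-like cluster. Among the 8271 genes with at least 50 UMIs in these cells, 1.43% were 2-fold higher and 2.61% lower. None of the 6 measured genes of the supporting-cell list, which holds the SOX9 partners GATA4 and WT1, was 2-fold apart. GATA4 had 47.7 against 42.1 CPM and WT1 103 against 166 CPM. Of 5 chondrogenic genes 1, COL11A1, was lower with 2 UMIs. The 3 measured macrophage markers were all higher in the summed SOX9-positive cells: C1QA had 66.8 against 4.58 CPM, C1QB 70.6 against 10.1 CPM and AIF1 28.6 against 9.16 CPM. All 35 C1QA and 37 C1QB UMIs came from 1 SOX9-positive cell. With the macrophage-like cluster left out, a choice made after seeing the data, which removes 1 cell from each group, C1QA and C1QB had 0 UMIs in the other 60 SOX9-positive cells and AIF1 9.79 against 5.51 CPM, from 5 UMIs. Median depth was 7640 UMIs with SOX9 and 7168 without.

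SOX7 and SOX18, the group F genes, came mostly from PECAM1-positive cells in every library, and they were 2 of the 8 members higher there, with no other past 2-fold, against 10.5%, 9.42%, 9.66% and 10.2% of genes at E24, E28, E31 and E37. SOX7 had 146, 140, 149 and 174 CPM in PECAM1-positive cells and 1.503, 1.96, 1.49 and 1.98 CPM in all others. It was 97.5-fold [82.0 to 116], 71.4-fold [58.3 to 88.2], 99.8-fold [81.0 to 124] and 87.7-fold [68.4 to 114] higher. SOX18 had 30.3, 73.6, 71.98 and 93.6 CPM against 0.207, 0.245, 0.179 and 0.344 CPM. Its ratios were 146 [93.4 to 239], 300 [176 to 555], 402 [227 to 785] and 272 [156 to 519]. With 2 PECAM1 UMIs required SOX18 was 113-fold higher at E31 and 123-fold at E37. Without doublets at the expected rate it was 296-fold higher at E24, where SOX7 was 151-fold higher. In cells chosen by at least 3 other endothelial markers SOX18 was 270.2- and 560.2-fold higher at E24 and E37, and SOX7 164- and 261-fold, so the sizes and their order between stages depend on how the cells were chosen. PECAM1-positive cells held 78.6%, 83.9%, 88.5% and 84.4% of all SOX7 UMIs and 84.7%, 95.6%, 96.9% and 94.4% of all SOX18 UMIs.

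Within PECAM1-positive cells SOX7 was level from E24 to E28, with a ratio of 0.958. SOX18 was 2.43-fold [1.97 to 3.01] higher at E28 and SOX8 2.07-fold, 2 of 8 members against 4.61% of genes. SOX2, with 221 and 4 UMIs, was lower, against 3.04%. Its E24 level lies within the macrophage interval of 33.4 to 65.4 CPM. Macrophage cells had 0 SOX2 UMIs at E28, so no fall beyond background is read from this call. At E28 against E24, 3 of 8 members had too few UMIs for a call. No member was 2-fold apart at E31 against E28, where 0.882% of genes were higher and 1.04% lower, or at E37 against E31, where 2.5% were higher and 3.43% lower. In each of those 2 comparisons 4 of 8 members had too few UMIs for a call. SOX18 thus made up 17.1% [14.5 to 20.05] of the SOX7 and SOX18 UMIs at E24 and 34.4%, 32.6% and 35.0% later. SOX17, the third group F gene, which acts in arteries and endoderm, had 92.6, 67.4, 92.0 and 58.5 CPM in these cells and was 65.9-, 57.4-, 103- and 79.0-fold higher than elsewhere.

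Single PECAM1-positive cells held these genes in varied sets. SOX7 was found in 56.9%, 62.2%, 61.5% and 59.6% of PECAM1-positive cells and SOX18 in 24.6%, 46.8%, 42.7% and 47.4%. After thinning to 2000 UMIs SOX18 was found in 7.19%, 9.71%, 12.3% and 17.4% of them. As counted, all 3 group F genes were found in 45, 58, 69 and 30 cells, and none of the 3 in 33.8%, 26.6%, 25.9% and 25.2% of PECAM1-positive cells. At 2000 UMIs per cell all 3 were found in 2 cells of each library, and none of the 3 in 61.4%, 63.3%, 62.0% and 56.1%. The sets found in single cells thus depend on depth.

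The endothelial list other than PECAM1 was higher for 13 of 13 genes in each library. CDH5, the cadherin of endothelial junctions, had 269, 501, 359 and 448 CPM against 1.18 to 2.41 CPM. Of known group F targets and partners, 10 of 14 were higher at E24, 12 of 15 at E28 and E31 and 12 of 14 at E37, and VCAM1 was lower in each. PROX1, the lymphatic factor that SOX18 switches on, had 7.63 CPM at E24, 1.69-fold above other cells, and 36.3, 33.8 and 73.9 CPM later. FLT4, the receptor for lymphatic growth factors, had 52.7, 109, 64.4 and 91.4 CPM. EFNB2, an arterial ligand, stayed near 2-fold, with ratios of 1.85, 2.08, 2.26 and 2.28.

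Markers of blood cells, which also carry PECAM1, went with the same cells. Macrophage markers were higher for 12 of 12 genes in PECAM1-positive cells of every library, with summed levels of 355, 457, 500 and 1006 CPM against 44.0, 74.4, 93.1 and 233 CPM. Megakaryocyte markers were higher for 5 of 5, 3 of 4, 4 of 4 and 4 of 4 genes. Endothelium-like clusters held 73.4%, 72.3% and 72.8% of PECAM1-positive cells at E24, E28 and E31, and 2 such clusters 67.4% and 9.13% at E37. Macrophage-like clusters held 2.40%, 8.63%, 3.14% and 11.3%. Without macrophage cells the SOX7 ratios were 102, 75.2, 105 and 95.8 and the SOX18 ratios 151, 312, 411 and 410. The E37 value of SOX18 was thus 272 with them and 410 without. Macrophage cells themselves held SOX7 at 23.1, 29.4, 37.8 and 3.81 CPM and SOX18 at 3.85, 16.2, 26.0 and 15.2 CPM, from 58, 46, 84 and 87 cells. In erythroid cells no SOX18 UMI was found and SOX7 had at most 1.22 CPM.

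Group F levels differed between the endothelium-like clusters of E37. The smaller, of 21 cells led by GJA5, EDN1 and GJA4, connexins and a peptide of arterial endothelium, had 250 CPM [181 to 335] of SOX18 and 199 CPM of SOX7. The larger, of 175 cells, had 93.3 CPM [79.7 to 109] of SOX18 and 231 CPM of SOX7. The SOX18 intervals do not overlap and the SOX7 intervals do. SOX17 had 238 CPM in the smaller and 53.6 CPM in the larger. An unnamed cluster of 32 cells at E31 led by LYZ, SRGN and MPO, in which 84.4% of cells held PECAM1, had 42.7 CPM of SOX18 from 17 UMIs.

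Members lower in PECAM1-positive cells numbered 3, 3, 2 and 3 of 8, against 9.35%, 15.5%, 12.2% and 15.7% of genes, with SOX9 and SOX10 in every library and SOX2 in all but E31. At E24 SOX2 was just past 2-fold, and at 0.522 without macrophage cells. SOX9 was at 0.2002, 0.342, 0.215 and 0.0775 of the level elsewhere. SOX2 was 52.7 CPM at E24, 0.498 of the level elsewhere, and had at most 27 UMIs later. SOX4 stayed near the level of other cells in PECAM1-positive cells, with ratios of 0.997 [0.948 to 1.05], 0.989 [0.946 to 1.03], 1.13 [1.09 to 1.17] and 0.923 [0.874 to 0.973].

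The group C genes SOX4 and SOX11 were the least cell-restricted of the 8. SOX4 ranged from 19.3 to 1406 CPM over the 101 clusters of the 4 libraries and had UMIs in each, with medians of 413, 499, 521 and 650 CPM per library. Its highest clusters were neuron-like at E24 (942 CPM) with gut endoderm-like beside it (880 CPM), then neural crest-like at E28 (1242 CPM), E31 (1406 CPM) and E37 (1348 CPM). At E24 and E28 the intervals of the highest and the second cluster overlap. In PAX6-positive cells SOX4 was 251 against 405 CPM, a ratio of 0.619, so the neural tube lay below the rest while the neuron-like cluster lay above it. Erythroid cells held SOX4 in 23.1%, 15.7%, 17.6% and 8.93% of cells at 48.0, 31.0, 33.7 and 26.2 CPM. Those levels are below the lowest library level of 387 CPM in each case. The lowest clusters had 38.7, 26.8, 19.3 and 24.7 CPM. Each library also had an erythroid-like cluster, of 110, 48, 48 and 111 cells. The lowest cluster may hold the same erythroid cells as the background, so these levels are not compared.

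SOX11 never exceeded 21.3 CPM in any cluster. Its 3 highest clusters in each library overlap in their intervals, so no order among them could be read. At E28, where its library level was highest, intermediate mesoderm-like (19.1 CPM [15.4 to 23.5]) and podocyte-like (18.6 CPM [13.6 to 24.7]) clusters stood near the top. No marker class had it 2-fold higher. Of SOX4-positive cells, 7.43%, 12.3%, 6.89% and 5.80% held SOX11 as counted, and at 2000 UMIs per cell the shares with and without SOX4 overlap in every library.

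SOX8 was low and widely spread outside neural crest. It had 28.2 CPM [22.1 to 35.4] at E28 and 30.1 CPM [24.8 to 36.2] at E31 in an unnamed mesenchymal cluster with TNC, DLK1, COL3A1 and EDN3 among its leading genes in both libraries. These intervals overlap those of the neural crest-like clusters, which had 39.3 CPM at E28 and 28.3 CPM at E31. At E24 a nephric epithelium-like cluster had 22.5 CPM and a myotome-like one 22.8 CPM. At E37 an adrenocortical-like cluster had 21.4 CPM [16.5 to 27.3], below the 42.3 and 39.1 CPM of the neural crest-like clusters.

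**Figure D4:**
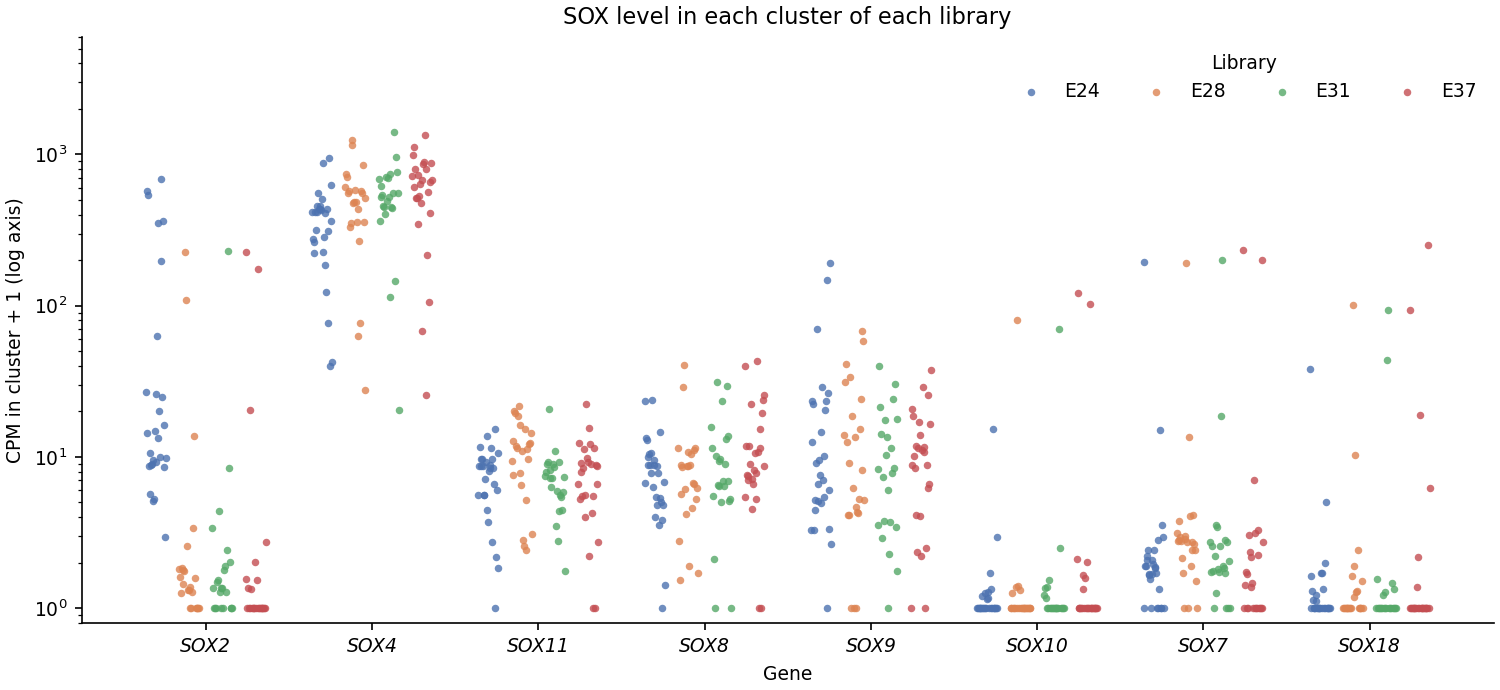
CPM plus 1 (log axis) of each SOX gene in each of the 101 clusters, 1 point per cluster, coloured by library and set side by side by library within a gene. SOX4 points reach from 19.3 to 1406 CPM, SOX11 and SOX8 lie in a band at or below 42.3 CPM, and most points of SOX10, SOX7 and SOX18 sit near the bottom of the axis with a few far above.

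Of the 28 pairs of SOX genes, few had shares that stood apart beyond both intervals at 2000 UMIs per cell. Thinning also leaves fewer detections: SOX10 was found in 60 cells as counted at E28 and in 8 after it. Overlapping intervals therefore do not show that a pair is unrelated. With each cell thinned to 2000 UMIs, the share of cells with the second gene was higher with than without the first, beyond both intervals, for 3, 3, 5 and 6 pairs at E24, E28, E31 and E37, and lower for 2 pairs at E24. Without thinning 11, 12, 10 and 10 pairs were above and 3, 2, 2 and 5 below. At 5000 UMIs, which leaves out shallower cells, 6, 7, 5 and 8 were above and 3, 2, 2 and 3 below. SOX7 with SOX18 was above in all 4 libraries under both counts. The pairs below at E24 with 2000 UMIs were SOX2 with SOX4 and SOX2 with SOX7.

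SOX18 was found in a larger share of SOX7-positive than of other cells in every library. As counted, 23.5%, 42.2%, 42.8% and 47.2% of SOX7-positive cells held SOX18, against 0.281%, 0.618%, 0.568% and 0.724% of cells without SOX7. Both were found in 74, 113, 137 and 85 cells, where 3.68, 10.01, 11.04 and 6.58 would be expected from each gene's frequency within 10 bins of depth. At 2000 UMIs the shares were 5.36%, 14.9%, 14.3% and 20.8% with SOX7 and 0.180%, 0.328%, 0.504% and 0.557% without.

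SOX10 was found in a larger share of SOX2-positive cells after E24. Those cells numbered 2582 at E24 and 134, 205 and 313 later, and the 3 neural tube-like clusters held 65.7% of SOX2 UMIs at E24. Of SOX10-positive cells, 51.2%, 81.7%, 82.7% and 77.3% held SOX2 as counted, so the pair was above at E24 too. In cells with SOX2, SOX10 was found in 0.813%, 36.6%, 39.5% and 59.7%, and in cells without it in 0.248%, 0.228%, 0.264% and 1.11%. The odds ratio pooled over depth bins was 3.18 at E24 and 257, 251 and 119 later. At 2000 UMIs the pair was above at E31 (12.6% against 0.198%) and E37 (18.5% against 1.16%), while at E24 and E28 1 cell each held both. At 5000 UMIs it was above at E28 too, with 14 shared cells (17.5% against 0.345%), and overlapped at E24 (0.255% against 0.210%).

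The odds ratio of SOX9 with SOX10 as counted was lower at each later stage, and no interval was computed for it. SOX10 was found in 2.30%, 3.61%, 3.87% and 5.45% of SOX9-positive cells and in 0.118%, 0.873%, 1.24% and 4.51% of others, and the odds ratio was 16.5, 3.51, 2.84 and 1.09. The E37 shares overlap in their intervals. SOX8 and SOX10 had odds ratios of 2.35, 4.48, 3.14 and 3.86. For SOX8 with SOX9, group E like SOX10, the odds ratios were 1.23, 0.987, 0.955 and 1.01.

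SOX9 was seldom found with the group F genes. SOX7 was found in 1.46%, 1.81%, 1.52% and 0.272% of SOX9-positive cells against 3.17%, 5.90%, 5.13% and 3.64% of others as counted. SOX9 and SOX18 shared 6, 1, 1 and 0 cells, where 14.7, 21.03, 19.99 and 8.93 would be expected from depth bins. At 2000 UMIs per cell the intervals of both pairs overlapped in every library. At 5000 UMIs SOX7 was found in 0.140%, 0.338%, 0.687% and 0.439% of SOX9-positive cells against 2.15%, 3.39%, 3.51% and 3.39% of others, below in all 4 libraries, and SOX18 was below at E28 and E31, with 0 shared cells in each.

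**Figure D5:**
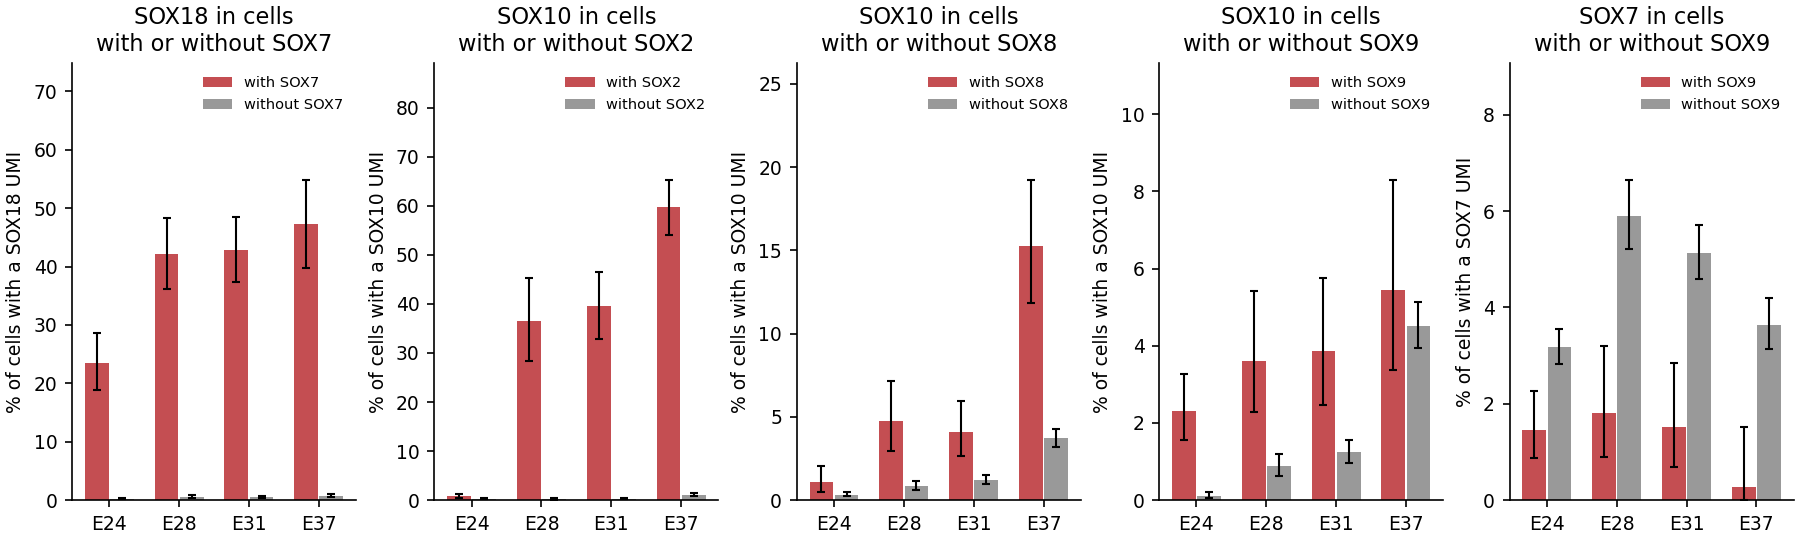
Percentage of cells with a UMI of the second gene among cells with (red) and without (grey) a UMI of the first, as counted, in the 4 libraries, with exact binomial 95% intervals and axes from 0 that differ between panels. SOX18 is found in 23.5% to 47.2% of SOX7-positive cells and in under 1% of others. SOX10 is found in 0.813% of 2582 SOX2-positive cells at E24 and in 59.7% of 313 at E37. The reverse share, SOX2 in SOX10-positive cells, is 51.2% at E24 and 77.3% at E37 and is not drawn.

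Across all 101 clusters, the profiles of SOX7 and SOX18 were the most alike of the 28 pairs, with a Pearson r of 0.942 on log2(CPM + 5). SOX4 and SOX11 had 0.608, SOX8 and SOX10 0.513, SOX2 and SOX10 0.506, and SOX9 and SOX7 -0.296. Clusters of 1 library share its depth and dissection, and related clusters recur between libraries, so these are descriptions. Among 10967 genes, those most like SOX7 were CDH5 (0.971), RNASE1 (0.961) and MMRN2 (0.961), and those most like SOX18 were MYCT1 (0.984), RNASE1 (0.976) and CDH5 (0.973). SOX10 was closest to CRYGB (0.976), FOXD3 (0.964) and ROPN1 (0.958). SOX2 was closest to FABP7 (0.846), CAMKV (0.806) and TTYH1 (0.786). SOX4 was closest to DDAH2 (0.895), TIA1 (0.875) and TEAD2 (0.866), and SOX11 to MEX3A (0.709), CCDC66 (0.702) and VANGL2 (0.700). SOX8 and SOX9 had no close match: the nearest were LGI4 (0.627), FAM35A (0.595) and CNP (0.576) for SOX8, and FLRT3 (0.593), WBP4 (0.567) and RMDN1 (0.542) for SOX9.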

How the data were processed

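The deposited files hold raw UMI counts per gene and barcode for 4 libraries, made by the authors with Cell Ranger 2.1.0, per the submitters' processing notes. No coordinates are printed, because the genome build was not given in the sources used here. A row with a blank name held 0 UMIs. No column was left unused, and 27545 of 27626 barcodes were kept: those with at least 500 genes that Scrublet did not call. It called 0%, 1.27%, 0.105% and 0.0944% of barcodes, so it had not worked at E24, E31 and E37. An alternative removed 906, 202, 355 and 225 barcodes by score, at 0.8% per 1000 barcodes.

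Counts were summed over cells and divided by the total (CPM). Intervals are exact Poisson (levels), Clopper-Pearson (shares) and conditional binomial (ratios), at 95%, for counting error alone. For a share of 0, 3 cells were taken as the limit. A call needed 2-fold with 0.5 UMI added to each sum. Cells were thinned to 2000 UMIs to compare shares. Clusters came from Leiden at resolution 1 on 2000 variable genes without SOX genes, 30 components and 15 neighbours, and were named from marker lists. Genes named are the 8 members and other SOX genes, the 5 markers, up to 4 genes per list past 2-fold by the interval bound nearest 1, the top 3 clusters per library and the 3 genes most alike over clusters. Other genes were named after their values were seen. Members and lists were chosen with earlier results of these data known, and ratios between stages within a class, gene combinations and UMI balances were added after seeing the data. Python 3.11.15, numpy 2.4.6, scipy 1.17.1, pandas 2.3.3 and scanpy 1.11.5 were used, and ratio and interval code was tested on simulated data. Some genes are not reported here.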

Additional observations from a re-analysis of the deposited data

Results flagged for a closer look

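SOX ratios between marker-positive and other cells lay on opposite sides of 1 at different stages in 3 cases, with intervals that exclude 1 at both. Each stage has 1 library, so the difference between stages was not tested. SOX4 in PECAM1-positive cells was 1.13 times the level of other cells at E31 and 0.923 times at E37. SOX2 in SOX10-positive cells was 65.0 times the level elsewhere at E28 and 0.572 times at E24. These ratios depend on the level of the other cells as well: SOX2 had 104 CPM in the whole library at E24 and 6.31 CPM at E28. In cells chosen by at least 3 other crest markers the E24 ratio was 1.51, so its side of 1 depended on the choice of cells. SOX9 in LHX9-positive cells was 1.57 times the level elsewhere at E37 and 0.203 times at E31, the latter from 2 UMIs.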

How the results depend on the processing

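No paired analysis was possible because each stage has 1 library. With 1 library a stage, embryo differences cannot be measured, and classes of under 20 positive cells gave no value under any setting, nor did alternatives that left fewer. A total without ribosomal and globin genes turned no direction or call among the 41 principal results it applies to. Leaving out macrophage cells, an alternative chosen after seeing the data, turned no direction among 38, but SOX18 in PECAM1-positive cells at E37 went from 272 to 410. SOX9 in SOX10-positive against other cells at E31 went from 2.02 to 1.98.

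As counted, 11, 12, 10 and 10 pairs of SOX genes were above at E24, E28, E31 and E37, and at 5000 UMIs per cell 6 at E24 and 7 at E28. Without doublets at the expected rate, 7 pairs were above at E28 and 3 at E31. SOX7 in PECAM1-positive cells at E24 was then 151-fold higher, SOX18 there 296-fold and SOX2 in PAX6-positive cells 8.49-fold, and 4.18% of genes were lower in SOX9-positive LHX9-positive cells. With 2 LHX9 UMIs required, 2.21% were higher. In cells positive for 1 of the 5 markers, 1 member was higher in SOX10-positive cells at E24.

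With 2 UMIs of the marker required, SOX7 in PECAM1-positive cells was 79.8-, 73.4- and 68.2-fold higher at E24, E31 and E37, and SOX18 113- and 123-fold at E31 and E37. SOX9 in PAX1-positive cells at E24 was 5.27-fold and SOX2 in PAX6-positive cells 7.06-fold higher. SOX2 in SOX10-positive cells was 48.7-, 41.1- and 18.1-fold higher at E28, E31 and E37.

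With cells chosen by at least 3 other markers of the class, SOX7 in endothelial cells was 164-, 133- and 261-fold higher at E24, E31 and E37, and SOX18 270.2- and 560.2-fold at E24 and E37. In neural crest cells SOX2 was at 1.51, 102, 126 and 453 times the level elsewhere at E24, E28, E31 and E37, SOX9 at E24 at 4.46 times and SOX11 at E24 at 1.10 times, reversed from 0.229. Members higher there numbered 1 at E24 and 2 at E28. In sclerotome cells SOX9 was at 1.87, 0.939 (reversed) and 1.34 times the level elsewhere at E24, E28 and E31, SOX11 at E31 at 1.17 times, reversed from 0.296, and members higher numbered 0 in each. In neural tube cells SOX2 was 7.15-fold higher and 2 members were higher.

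With positive cells taken from clusters named for the class, also chosen after seeing the data, SOX7 in PECAM1-positive cells was 137-, 97.3- and 136-fold higher at E24, E28 and E31, and SOX2 in PAX6-positive cells 9.50-fold. SOX9 in LHX9-positive cells was at 0.0825 and 0 times the level elsewhere at E28 and E31, and 1 member was higher in SOX10-positive cells at E24. With Leiden at resolution 2, 8 of the highest cluster levels moved beyond their interval and 24 did not, and with SOX genes kept for clustering 4 moved and 28 did not. The cause of these changes was not tested.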
